A study of Arabidopsis thaliana with 12 samples.

Results

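SWEET proteins are sugar carriers that let sugars move across a membrane down their own concentration gradient, in either direction and without using energy. Some sit in the plasma membrane and release sugar from a cell or take it up, and others sit in the tonoplast, the membrane around the vacuole where leaf cells store sugars. In Arabidopsis leaves, SWEETs of the phloem parenchyma pass sucrose towards the veins for export, and at night that sucrose is made from starch broken down in the chloroplast.

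The genes described here are those whose symbol on the array platform is SWEET followed by a number and that have a probe set assigned to 1 gene. They were 14 of the 13356 genes with such a probe set, namely SWEET1, SWEET2, SWEET3, SWEET4, SWEET6, SWEET7, SWEET8, SWEET9, SWEET10, SWEET11, SWEET13, SWEET14, SWEET16 and SWEET17. The family has 17 loci in Arabidopsis and 16 of them had a probe set of 1 gene. The remaining 2 carried another symbol, SWEET5 as AtVEX1 and SWEET15 as SAG29, and are described apart from the 14. SWEET12 had no named probe set and was not analysed here.

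Transcripts were measured on the Affymetrix ATH1 array in leaves of 4 genotypes, with 3 arrays each. sex1-3 is an induced mutation in the Col-0 background that affects SEX1, the glucan, water dikinase that phosphorylates starch. sex4-3 is a Salk insertion line affecting SEX4, a phosphoglucan phosphatase that removes such phosphate. ptpkis2 is a Salk insertion line affecting a SEX4-related protein also called LSF1, and the wild type (WT) was Columbia. All plants had a photoperiod of 12 h at 100 micromol m-2 s-1 and 20 °C, and 3 leaves from 8 plants of each genotype were frozen in the dark 0.5 h before the lights came on. Each mutant was a single line. Nothing in the labels tells whether a genotype's 3 arrays stand for different plants or for repeats of 1 pool, and the p-values therefore cover array-to-array spread that may be technical. SEX1, SEX4 and LSF1 had 0 probe sets of 1 gene in the annotation used, so the genotypes were not checked by the transcripts of the mutated genes. That annotation gave 1 gene to 13513 of the 22746 probe sets without controls. A gene without such a probe set here may still be on the array.

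WT replicate 2 stood apart from the other arrays. Its median signal was 62.2, against 24 to 29.7 on the other 11 arrays, and it correlated with them at r = 0.586 to 0.604 across probe sets, while they correlated with one another at 0.891 to 0.93. The differences of the tested SWEET genes from WT are therefore given with all 12 arrays and again with the 11 arrays that remain without it. Of the marker lists, leaf markers had 1 of 8 genes with a probe set, root markers 1 of 6, flower and seed markers 0 of 4 each, and phloem markers 1 of 5, which was SWEET11 itself. The leaf gene RCA, which encodes Rubisco activase, was bright on all 12 arrays, at 5870 to 12700. The root hair expansin EXPA7 read 147 on WT replicate 2 and 1.49 to 16.4 on the other arrays. Low signals in general were higher on that array, where the 20th percentile was 11.6, against 2.78 to 3.91 on the other 11. What raised the values of WT replicate 2 was not tested. Among the other 11 arrays the median signal also followed genotype. It was 24 to 26 in sex1-3, 26.9 to 28 in sex4-3, 27.8 and 27.9 in WT and 29.3 to 29.7 in ptpkis2. The main fit did not adjust for this order, in which sex1-3 was lowest and ptpkis2 highest.

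Values are the authors' MAS5 signals, a linear brightness per probe set in arbitrary units. A signal orders genotypes within a gene, but probe sets differ in how brightly they bind, so no gene's level is set against another's. In whole leaves, fewer cells of a type and less RNA per cell cannot be told apart. Differences are on the log2 scale with their standard error (SE) and 95% interval, from limma fitted to 13647 probe sets, and a gene was called at a Benjamini-Hochberg adjusted p below 0.05.

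Of the 14 SWEET genes, 7 passed the filter on low signal, which removed the 40% of probe sets with the lowest mean log2 signal. They were SWEET1, SWEET2, SWEET4, SWEET11, SWEET13, SWEET16 and SWEET17, and the same 7 passed without WT replicate 2. The filter lay at a signal of 14. The 2 dimmest genes inside it were SWEET16 and SWEET4, with geometric mean signals of 18.6 and 20.2, and the 2 brightest outside it were SWEET8 and SWEET9, at 12.4 and 11.6.

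Among the tonoplast carriers, SWEET17 fell in sex1-3 and had the widest range of genotype means on the log2 scale among the 7 SWEET genes tested. SWEET17 (AT4G15920) is a vacuolar uniporter that is known to influence the fructose content of leaves. In sex1-3 leaves its signals were 28.2, 44.7 and 38.8 on replicates 1 to 3. In sex4-3 leaves they were 113, 106 and 149. In ptpkis2 leaves they were 277, 283 and 319, and in WT leaves 214, 129 and 237. The sex1-3 arrays lay below every other array, and the ptpkis2 arrays lay above every other array. sex4-3 lay in between and overlapped WT through WT replicate 2 alone.

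The mean SWEET17 signal was 37.3 ± 8.35 in sex1-3, 123 ± 22.7 in sex4-3, 293 ± 22.3 in ptpkis2 and 193 ± 57.1 in WT (SD, n = 3 each). Without replicate 2 the WT mean was 225 ± 15.9 (SD, n = 2). The order was thus ptpkis2, WT, sex4-3 and sex1-3 from high to low, with and without that array. In sex1-3 the transcript was 5.1-fold lower than in WT, a log2 difference of -2.35 ± 0.26 (SE; 95% interval -2.93 to -1.77; limma adjusted p = 0.00093). Without WT replicate 2 the difference was -2.62 ± 0.21 (adjusted p = 5.3e-06), which is 6.15-fold. Among the 13647 probe sets, 87 fell as far as SWEET17 or further in sex1-3 relative to WT with 12 arrays, and 49 did so with 11. The call was lost when each array was centred on its median (-1.81, adjusted p = 0.12) and when only sex1-3 and WT entered the fit (-2.35, adjusted p = 0.1), both with WT replicate 2 included.

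**Figure D1:**
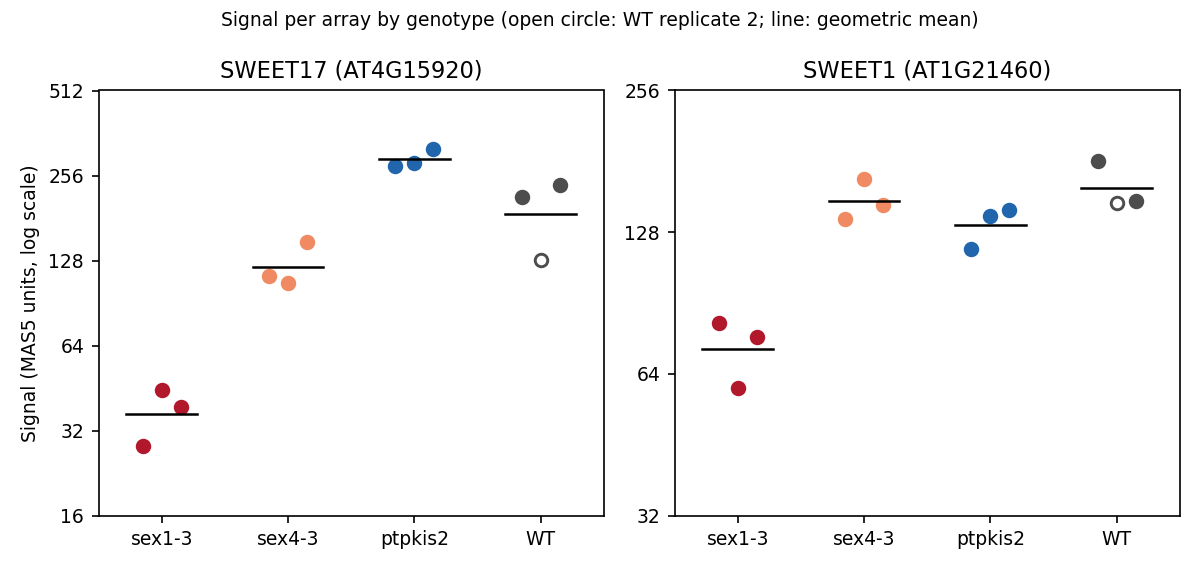
MAS5 signal (log axis, arbitrary units) of SWEET17 and SWEET1 on each array, by genotype. Points are arrays, horizontal bars are genotype means on the log2 scale, and WT replicate 2 is drawn with its own mark. The 3 sex1-3 arrays are the lowest in both panels, and ptpkis2 is the highest genotype for SWEET17 but not for SWEET1.

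Neighbours in the SWEET17 order were not all separated by the test. In ptpkis2 the difference from WT was 0.65 ± 0.26 (95% interval 0.07 to 1.22; adjusted p = 0.37), and it was 0.38 ± 0.21 (-0.07 to 0.82; adjusted p = 0.41) without WT replicate 2. In sex4-3 the difference from WT was -0.62 ± 0.26 (-1.20 to -0.04; adjusted p = 0.57). It was -0.89 ± 0.21 (-1.34 to -0.45; adjusted p = 0.42) without WT replicate 2, and all 3 sex4-3 arrays then lay below both remaining WT arrays. Neither mutant therefore passed the threshold against WT, although both intervals from 12 arrays left out 0.

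Between mutants, SWEET17 was called with 12 arrays in both pairs that include sex1-3. Between ptpkis2 and sex4-3 it was called only without WT replicate 2. ptpkis2 was 7.99-fold above sex1-3, a log2 difference of 3.00 ± 0.26 (95% interval 2.42 to 3.57; limma adjusted p = 6.1e-05). sex4-3 was 3.32-fold above sex1-3, at 1.73 ± 0.26 (1.15 to 2.31; adjusted p = 0.0054). ptpkis2 was 2.41-fold above sex4-3, at 1.27 ± 0.26 (0.69 to 1.84), with an adjusted p of 0.19 from 12 arrays and 0.0028 without WT replicate 2. That array holds no sex4-3 or ptpkis2 RNA, and the size of this difference was the same with and without it, while the SE was 0.19 on 11 arrays. With 11 arrays the adjusted p was 8.9e-08 for ptpkis2 and sex1-3 and 4.7e-05 for sex4-3 and sex1-3. Median centring of the 12 arrays ended the call of sex4-3 against sex1-3 (1.59, adjusted p = 0.24). The groups did not overlap in any of these pairs. Among all probe sets, 53 stood as far or further above sex1-3 in ptpkis2, 161 did so in sex4-3, and 67 stood as far or further above sex4-3 in ptpkis2.

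SWEET16 (AT3G16690), a tonoplast carrier closely related to SWEET17, was close to the filter and showed no such pattern. Its signals were 17.3, 26.1 and 18.4 in sex1-3 leaves, 16.5, 8.33 and 23.2 in sex4-3 leaves, and 20.0, 21.2 and 11.5 in ptpkis2 leaves. WT leaves gave 14.7, 78.8 and 11.4, so WT replicate 2 was 4.55 times the median of the other arrays. With it the log2 differences from WT were -0.22 in sex1-3, -0.68 in sex4-3 and -0.48 in ptpkis2. Without it all 3 sex1-3 arrays lay above both WT arrays, and 38.5% of all tested probe sets did not overlap in that comparison. The SWEET16 difference was then 0.65 (95% interval -0.41 to 1.70, limma adjusted p = 0.47). The other two were then 0.19 in sex4-3 and 0.39 in ptpkis2, so all 3 signs turned. SWEET16 was not called in any of the 6 comparisons.

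SWEET2 (AT3G14770) is a tonoplast carrier known for keeping glucose in root vacuoles. Its signals were 614, 514 and 475 in sex1-3 leaves, 763, 637 and 524 in sex4-3 leaves, and 421, 591 and 549 in ptpkis2 leaves. WT leaves gave 776, 228 and 596, and WT replicate 2 was the lowest of the 12 arrays. With it, the 3 mutants were 0.17, 0.42 and 0.12 above WT on the log2 scale, in the order sex1-3, sex4-3 and ptpkis2. Without it, they were at -0.36 (95% interval -0.78 to 0.07), -0.10 (-0.52 to 0.32) and -0.40 (-0.83 to 0.02). The sign of all 3 differences thus rested on WT replicate 2, and none passed the threshold either way. In ptpkis2 all 3 arrays lay below the 2 remaining WT arrays, and 35.4% of all tested probe sets did not overlap in that comparison.

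Of the plasma membrane hexose carriers, SWEET1 was lowest in sex1-3, as SWEET17 was, but its ptpkis2 arrays were not the highest. SWEET1 (AT1G21460) is a glucose uniporter, the carrier by which the family was first defined. In sex1-3 leaves its signals were 82.0, 59.6 and 76.8. In sex4-3 leaves they were 137, 166 and 146. In ptpkis2 leaves they were 118, 138 and 143, and in WT leaves 181, 148 and 149. WT replicate 2 read 1.07 times the median of the other arrays for this gene, so it did not stand apart here. The sex1-3 arrays lay below all 9 others, whose values ran close together.

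The mean SWEET1 signal was 72.8 ± 11.7 in sex1-3, 150 ± 15.2 in sex4-3, 133 ± 13.4 in ptpkis2 and 159 ± 18.9 in WT (SD, n = 3 each). In sex1-3 it was 2.2-fold lower than in WT, a log2 difference of -1.14 ± 0.19 (SE; 95% interval -1.56 to -0.72; limma adjusted p = 0.009), and -1.19 ± 0.19 (adjusted p = 0.0012) without WT replicate 2. Relative to WT, 944 probe sets fell as far or further in sex1-3 with 12 arrays and 480 with 11, so more probe sets fell beyond SWEET1 than beyond SWEET17. This call too was lost under median centring (-0.59, adjusted p = 0.3) and in the fit of sex1-3 and WT alone (-1.14, adjusted p = 0.24). The differences from WT were -0.09 in sex4-3 (-0.51 to 0.33; adjusted p = 0.81) and -0.26 in ptpkis2 (-0.68 to 0.16; adjusted p = 0.51), or -0.14 and -0.31 without WT replicate 2. All 3 ptpkis2 arrays lay below all 3 WT arrays, and with 12 arrays 17.8% of all tested probe sets did not overlap in that comparison.

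Both other mutants were above sex1-3 for SWEET1. The log2 difference of ptpkis2 from sex1-3 was 0.88 ± 0.19 (0.46 to 1.3; 1.84-fold; limma adjusted p = 0.014), and that of sex4-3 from sex1-3 was 1.05 ± 0.19 (0.63 to 1.47; 2.07-fold; adjusted p = 0.015). The difference of ptpkis2 from sex4-3 was -0.17 (-0.59 to 0.25) with an adjusted p of 1. SWEET17 was higher in ptpkis2 in the same pair, not called with 12 arrays but called without WT replicate 2. For SWEET1 relative to sex1-3, the adjusted p with 11 arrays was 0.0013 for ptpkis2 and 0.00094 for sex4-3. Median centring of the 12 arrays ended both of these SWEET1 calls (0.64 and 0.91, limma adjusted p = 0.41 and 0.44). With other arrays left out, the ptpkis2 call was lost without ptpkis2 replicate 2, ptpkis2 replicate 3 or sex1-3 replicate 2, at adjusted p of 0.064, 0.07 and 0.06. The sex4-3 call was lost without sex4-3 replicate 2, sex1-3 replicate 2 or sex1-3 replicate 3, at 0.093, 0.062 and 0.056. Across the 11 arrays without WT replicate 2, SWEET1 and SWEET17 correlated at r = 0.78 and Spearman's rho = 0.45, across arrays of 4 genotypes that share their processing.

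SWEET4 (AT3G28007), a plasma membrane hexose carrier known from veins, was near the filter. Its signals were 28.1, 9.96 and 16.5 in sex1-3 leaves, 31.0, 14.8 and 19.3 in sex4-3 leaves, 20.1, 20.7 and 19.7 in ptpkis2 leaves and 25.1, 42.6 and 13.2 in WT leaves. All genotypes overlapped. The log2 differences from WT were -0.54 in sex1-3, -0.23 in sex4-3 and -0.26 in ptpkis2, and -0.13, 0.18 and 0.14 in the same order without WT replicate 2.

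Among the sucrose carriers, SWEET11 spread widely within genotypes and SWEET13 did not, WT replicate 2 aside. SWEET11 (AT3G48740) works in the phloem parenchyma, where it releases sucrose for loading into the veins. Its signals were 941, 1420 and 666 in sex1-3 leaves, 2070, 1420 and 1400 in sex4-3 leaves, and 1390, 1580 and 1180 in ptpkis2 leaves. WT leaves gave 746, 529 and 1350, with WT replicate 2 the lowest of the 12 arrays. The 3 sex4-3 arrays lay above the 3 WT arrays, while sex1-3 and ptpkis2 overlapped WT.

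The mean SWEET11 signal was 1010 ± 383 in sex1-3, 1630 ± 380 in sex4-3, 1380 ± 201 in ptpkis2 and 874 ± 424 in WT (SD, n = 3 each). The log2 difference of sex4-3 from WT was 0.98 ± 0.35 (95% interval 0.22 to 1.75; limma adjusted p = 0.57). Without WT replicate 2 it was 0.68 (0.04 to 1.31; adjusted p = 1). That of ptpkis2 from WT was 0.76 (0.00 to 1.52; adjusted p = 0.40), or 0.45 (-0.18 to 1.09) without that array. In sex1-3 it was 0.25 (-0.51 to 1.01) and -0.06 (-0.70 to 0.58). The difference of sex4-3 from sex1-3 was 0.74 (-0.03 to 1.5), and without WT replicate 2 its interval was 0.17 to 1.31 (limma adjusted p = 0.081). That of ptpkis2 from sex1-3 was 0.51 (-0.25 to 1.28), or -0.06 to 1.08 without that array. SWEET11 was called in none of the 6 comparisons. Its sex1-3 arrays overlapped those of every other genotype, unlike those of SWEET1 and SWEET17.

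SWEET13 (AT5G50800), a sucrose carrier of the same clade, was nearly level on 11 arrays. Its signals were 29.5, 27.1 and 27.8 in sex1-3 leaves, 30.0, 25.8 and 32 in sex4-3 leaves, 28.1, 23.7 and 26.1 in ptpkis2 leaves and 24.5, 166 and 33.9 in WT leaves. WT replicate 2 was 5.99 times the median of the others and by itself set the log2 differences from WT of -0.88 in sex1-3, -0.83 in sex4-3 and -1 in ptpkis2. Without it they were -0.04, 0.02 and -0.16 in the same order.

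**Figure D2:**
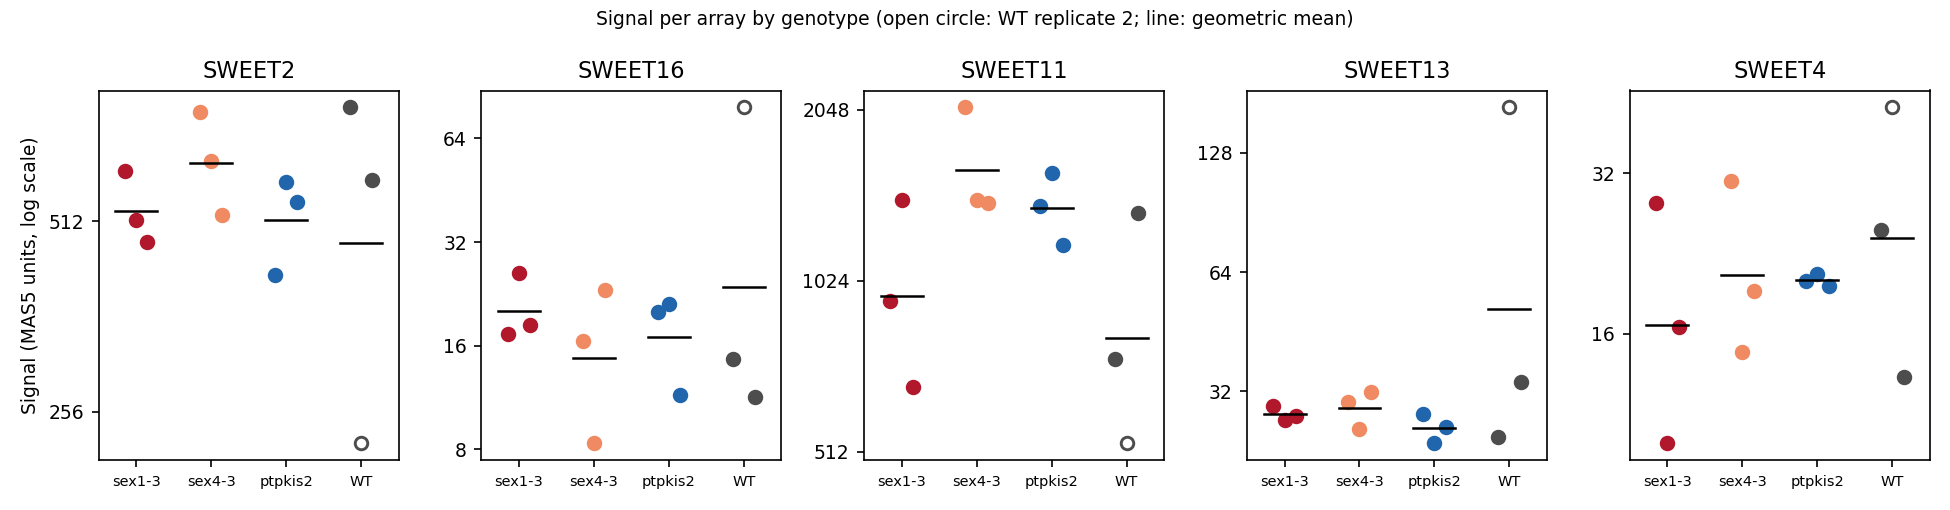
MAS5 signal (log axis, arbitrary units) of SWEET2, SWEET16, SWEET11, SWEET13 and SWEET4 on each array, by genotype, with points for arrays and bars for genotype means on the log2 scale. WT replicate 2 is the lowest array for SWEET2 and SWEET11 and the highest for SWEET16, SWEET13 and SWEET4.

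Of the 14 SWEET genes, the 7 that passed the filter were tested, and 2 of these 7 were called in sex1-3 relative to WT, SWEET1 and SWEET17, both lower. Of all probe sets tested, 2.95% were called in that comparison and 1.87% were called lower. Without WT replicate 2 the same 2 genes were called, against 8.87% of all probe sets called and 5.64% called lower. In sex4-3 relative to WT, 0 of the 7 were called, beside 0.00733% of all probe sets, with 12 arrays and with 11 alike. In ptpkis2 relative to WT, 0 of the 7 were called, beside 0.264% with 12 arrays and 2.7% with 11. At an unadjusted limma p below 0.05 there were 2 in sex4-3, SWEET11 and SWEET17, beside 5.23% of all probe sets, and 1 in ptpkis2, SWEET17, beside 12.5%. With 11 arrays there were the same 2 in sex4-3, beside 4.68%, and 0 in ptpkis2, beside 15.7%.

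Between mutants, SWEET1 and SWEET17 were again the 2 of 7 called, both higher in ptpkis2 than in sex1-3 and both higher in sex4-3 than in sex1-3. The background was 9.46% of probe sets called in the first of these comparisons, 5.28% called higher, and 2.43% in the second, 1.63% higher. Without WT replicate 2 the same 2 genes were called, beside 29.1% of probe sets in the first, 16.8% higher, and 14% in the second, 8.39% higher. Between ptpkis2 and sex4-3, 0 of the 7 were called with 12 arrays, beside 0.0659%, and 1, SWEET17, without WT replicate 2, beside 1.66%. These comparisons share arrays with one another, so a low sex1-3 signal enters 3 of them.

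Counts of genes whose arrays did not overlap between genotypes are read against the same counts over all probe sets. Among the 7 genes that passed the filter these were 2 in sex1-3 relative to WT, with a background of 22.6%, 1 in sex4-3 relative to WT, with 8.54%, and 2 in ptpkis2 relative to WT, with 17.8%. On 11 arrays they were 3, 2 and 3, with 38.5%, 17.6% and 35.4%. Between mutants they were 2 for ptpkis2 and sex1-3, with 45.3%, 2 for sex4-3 and sex1-3, with 31.3%, and 1 for ptpkis2 and sex4-3, with 20.8%. The 11 arrays gave the same counts, with 45.4%, 31.3% and 20.8%.

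**Figure D3:**
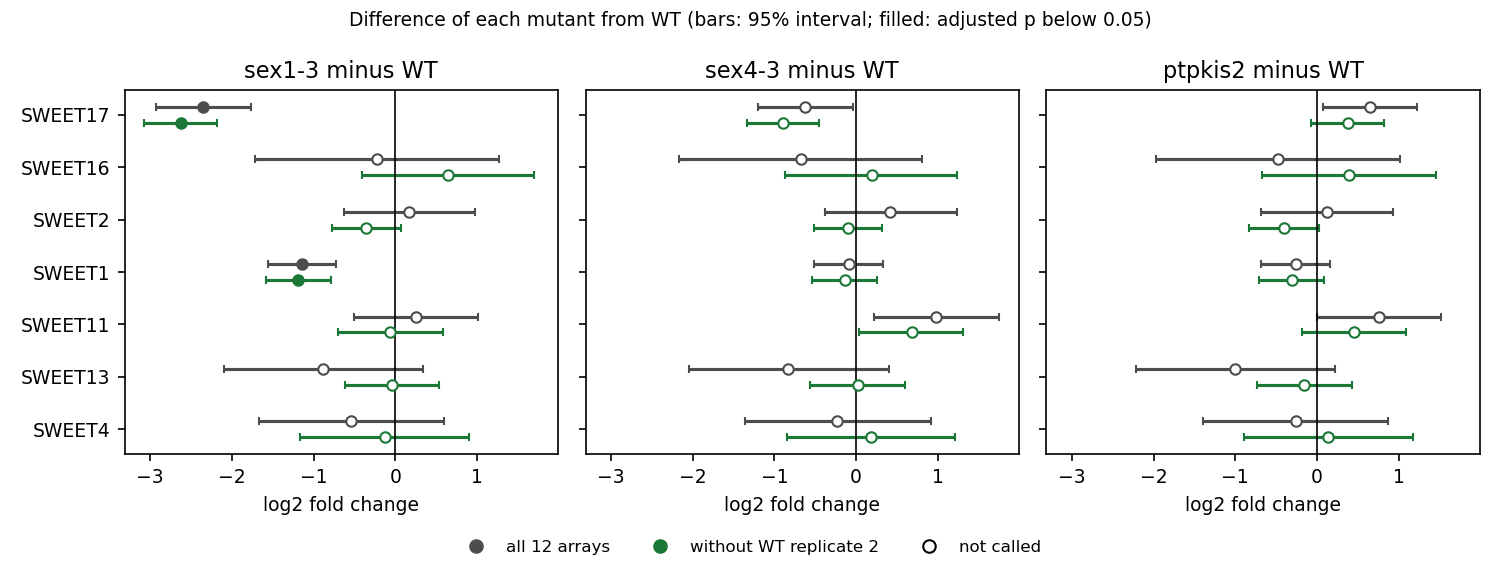
Log2 differences of sex1-3, sex4-3 and ptpkis2 from WT for the 7 SWEET genes that passed the filter, with 95% intervals from limma, for all 12 arrays and for 11 arrays without WT replicate 2. Filled marks are genes called at an adjusted p below 0.05. SWEET1 and SWEET17 in sex1-3 are the filled marks in both fits, and the values of SWEET2, SWEET13 and SWEET16 shift most between the fits.

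Median log2 differences over all 14 genes, from a fit with no filter, moved with WT replicate 2. With 12 arrays they were -1 in sex1-3, -0.64 in sex4-3 and -0.37 in ptpkis2 relative to WT, where all 22746 probe sets had medians of -0.29, -0.19 and -0.15. With 11 arrays they were -0.21, 0.05 and 0.26 in the same order, where all probe sets had -0.04, 0 and 0.06. Relative to sex1-3, which no WT array enters, the SWEET medians were 0.51 in ptpkis2 and 0.34 in sex4-3, beside 0.10 and 0.04 over all probe sets. Over the 7 genes that passed the filter alone they were 0.28 and 0.31, beside 0.08 and 0.04 over all tested probe sets. The genes below the filter had SEs of 0.8 to 1.48 in the fit with no filter, so these medians are imprecise.

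The 7 genes below the filter were SWEET3, SWEET6, SWEET7, SWEET8, SWEET9, SWEET10 and SWEET14. Several are known from other organs or stages: SWEET8 from the pollen wall, SWEET9 from nectaries, SWEET10 from the transition to flowering, and SWEET14 from anthers. On the 11 arrays without WT replicate 2, 15 of their 77 signals were above the filter signal. WT replicate 2 gave the highest of the 12 signals for 6 of the 7, at 3.83 to 11.4 times the median of the other arrays. For SWEET7, the exception, that ratio was 1.74. A limma fit of the 12 arrays with no filter called none of the 7 in any comparison.

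**Figure D4:**
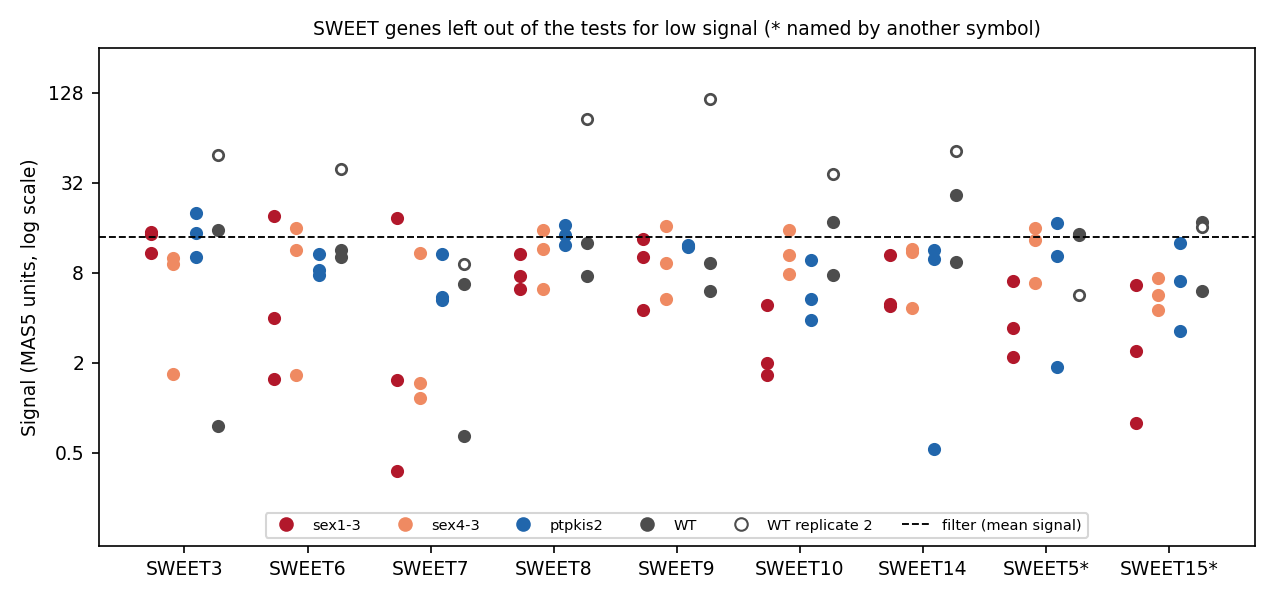
MAS5 signal (log axis, arbitrary units) of the 7 SWEET genes below the filter, and of SWEET5 and SWEET15, on each array, by genotype, with the filter signal of 14 drawn as a line. Most points lie below the line, and the WT replicate 2 mark is the highest point for 6 of the 7 genes.

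SWEET10 (AT5G50790), a sucrose carrier that is induced when plants flower, was singled out among the dim genes after its values were seen. Its signals were 1.67, 4.85 and 1.99 in sex1-3 leaves, 15.5, 10.5 and 7.82 in sex4-3 leaves, 3.89, 5.36 and 9.78 in ptpkis2 leaves and 17.6, 36.4 and 7.76 in WT leaves. The sex1-3 arrays lay below all sex4-3 and WT arrays but overlapped ptpkis2. SWEET10 lies next to SWEET13 with 0 coding genes between them, and the 2 did not share this order.

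SWEET5, which is known from the vegetative cell of pollen, and SWEET15, a gene of senescing leaves and seeds, were as dim. SWEET5 averaged 4.21 ± 2.52 in sex1-3, 12 ± 4.67 in sex4-3, 9.78 ± 7.64 in ptpkis2 and 11.6 ± 5.09 in WT. SWEET15 averaged 3.29 ± 3.04 in sex1-3, 5.84 ± 1.43 in sex4-3, 7.67 ± 4.72 in ptpkis2 and 13.2 ± 6.29 in WT (SD, n = 3 each). Both were left out of the tests by the filter.

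Other genes of sugar transport and cleavage gave a setting for the SWEET values. Of 67 genes in 6 lists, 15 had a probe set of 1 gene and 10 passed the filter, or 11 without WT replicate 2. The list of sucrose transporters had 0 of its 9 genes with such a probe set. In sex1-3 relative to WT, 1 of the 10 was called, and lower, beside the 1.87% of all probe sets called lower. The median over the 10 was 0.04, beside -0.02 over all tested probe sets. Without WT replicate 2 the median over the 11 was -0.26, beside -0.06, so that array turned its sign.

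The gene called was AT1G62660, listed as FRUCT3, a vacuolar invertase that cleaves sucrose into glucose and fructose. Its signals were 35.9, 47 and 71.8 in sex1-3 leaves, 47.8, 47.4 and 93.6 in sex4-3 leaves, 122, 77.2 and 135 in ptpkis2 leaves and 115, 300 and 147 in WT leaves. The sex1-3 arrays lay below all ptpkis2 and WT arrays. The log2 difference of sex1-3 from WT was -1.80 ± 0.42 (limma adjusted p = 0.044), or -1.39 ± 0.34 (adjusted p = 0.021) without WT replicate 2. The call from 12 arrays was lost (0 list genes called) on leaving out any single array of sex1-3 or ptpkis2, or sex4-3 replicate 1 or 2, which is 8 of the 12 arrays. It was also lost under quantile normalization, median centring, no filter, eBayes without a trend, the replicate number as a block and the fit of sex1-3 and WT alone, all with 12 arrays.

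In ptpkis2 relative to sex1-3, 0 of the 10 were called with 12 arrays, beside 9.46% of all probe sets. Without WT replicate 2, 3 of 11 were called, beside 29.1%. FRUCT3 was higher, averaging 112 in ptpkis2 and 51.6 in sex1-3, at 1.13 ± 0.31 (limma adjusted p = 0.013). XPT (AT5G17630), the plastid xylulose 5-phosphate translocator, was higher, averaging 232 in ptpkis2 and 156 in sex1-3, at 0.56 ± 0.17 (adjusted p = 0.022). STP3 (AT5G61520), a hexose and proton symporter of the plasma membrane, was lower, averaging 78.5 in ptpkis2 and 112 in sex1-3, at -0.51 ± 0.17 (adjusted p = 0.033). Of the vacuolar sugar carriers and the ERD6 family, 5 genes passed the filter. In sex1-3 relative to WT, 0 of these 5 were called, beside 2.95% of all probe sets with 12 arrays and 8.87% with 11. With 12 arrays their differences ran from -0.74 ± 0.31 for VGT2 to 0.17 ± 0.26 for TMT2, and without WT replicate 2 from -0.64 ± 0.23 for SFP2 to 0.18 ± 0.15 for TMT1. TMT1 and TMT2 are tonoplast carriers that load sugar into the vacuole.

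The genes most like SWEET17 were found by Pearson's r of log2 signal over the 11 arrays. The candidates were the 7392 probe sets of 1 gene that passed the filter. The 5 highest were AT4G05400, AT1G29980, AT5G20700, AT5G45650 and AT1G73600, at r of 0.96 to 0.97. With WT replicate 2 included their r was 0.85 to 0.96. AT1G73600 averaged 8.02 in sex1-3, 122 in sex4-3, 633 in ptpkis2 and 223 in WT on those arrays, a wider range than that of SWEET17. The low end of that range, in sex1-3, lay below the filter signal of 14. The likeness of AT1G73600 in order follows from how it was chosen. AT5G45650 averaged 43 in sex1-3, 115 in sex4-3, 200 in ptpkis2 and 139 in WT. The n of these correlations is 11 arrays of 4 genotypes.

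The 5 genes most like SWEET1 were PRH75, AT4G37240, AT2G44210, AT1G78020 and SCPL45, at r of 0.93 to 0.95 over the 11 arrays. With WT replicate 2 included their r was 0.22 to 0.57. PRH75, a DEAD-box RNA helicase, averaged 131 in sex1-3, 283 in sex4-3, 270 in ptpkis2 and 262 in WT. None of these was among the 5 genes most like SWEET17. For SWEET2, SWEET4, SWEET11, SWEET13 and SWEET16 the 5 closest genes each had r of 0.80 to 0.97 on the same arrays.

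**Figure D5:**
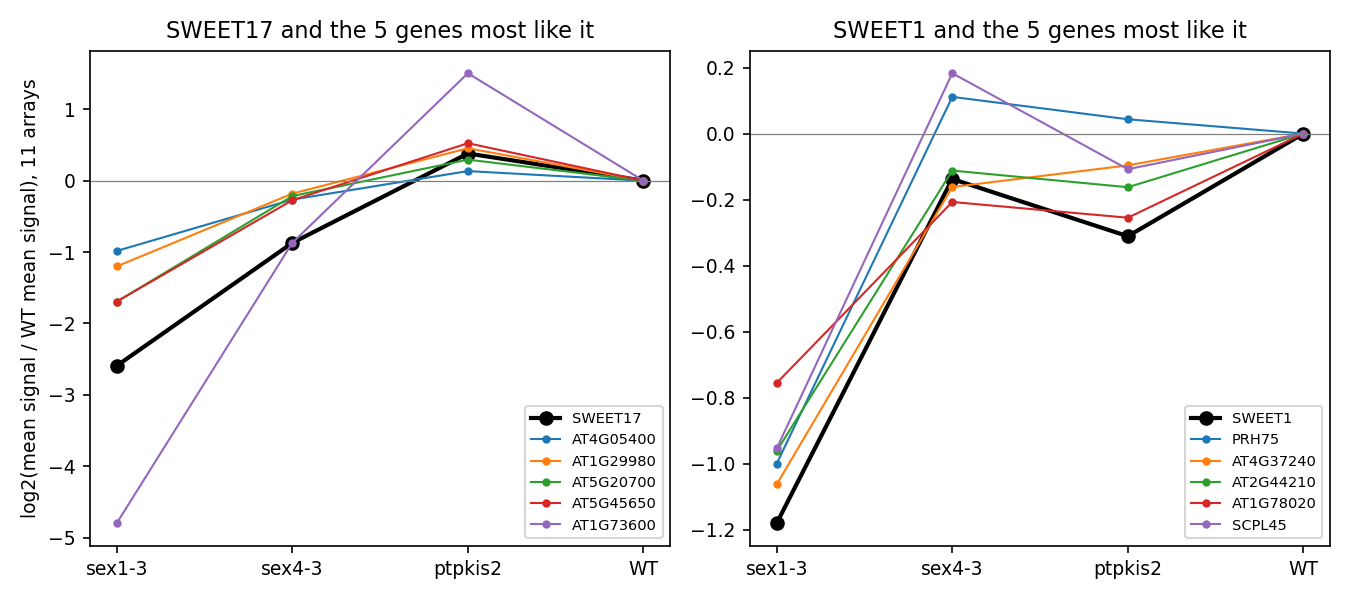
Log2 ratio of each genotype's mean signal to the WT mean, over the 11 arrays without WT replicate 2, for SWEET17 and SWEET1 and the 5 genes most like each, which were chosen for their correlation with it over these arrays. All 6 lines of the SWEET17 panel are lowest in sex1-3 and highest in ptpkis2, and all 6 of the SWEET1 panel are lowest in sex1-3.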

How the data were processed

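Leaf RNA was hybridised to ATH1 arrays, 12 in all. The deposited table holds linear signal intensities that the authors made with MAS5 and GCOS, according to the submitters' processing notes, which give no version. These intensities were put on a log2 scale without a pseudocount or renormalization. The table had 22810 probe sets. Dropping 64 controls and then the dimmest 40%, ranked on mean log2 signal, left 13647. limma 3.58.1 in R 4.3.3 fitted 1 mean per genotype over the 12 arrays (eBayes with a trend, 8 residual degrees of freedom), with Benjamini-Hochberg adjustment over all 13647 and two-sided tests at an adjusted p of 0.05. The number of arrays limits the precision.

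Names came from the platform annotation, which gave 13513 probe sets 1 gene and 503 several, and newer symbols came from RefSeq's TAIR10.1 table. The SWEET genes and the lists were chosen with earlier results of these data known. All SWEET genes were named, as were called list genes, up to 4 per list by adjusted p, and the 5 genes most correlated with each SWEET gene that passed the filter. The genes at both ends of the vacuolar carrier list were added after their values were seen. The loci of the lists were written from memory. Replicate numbers were not used to pair the arrays in the main fit. The alternatives were quantile normalization, median centring, other filters, a floor, a pseudocount, eBayes without a trend, fits of 2 genotypes, a replicate block and each array left out. Quantile normalization and median centring of 11 arrays were added after seeing the data.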

Additional observations from a re-analysis of the deposited data

How the results depend on the processing

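Among 42 SWEET differences (7 genes, 6 comparisons) under 23 alternatives, 949 of 966 values kept their side of the threshold, and no called difference changed sign. Of those 949, 690 came from SWEET2, SWEET4, SWEET11, SWEET13 and SWEET16, which had no call to lose. All 17 changes were in the other genes, with 10 calls lost for SWEET1, and 3 lost and 4 gained for SWEET17. Median centring with WT replicate 2 included put sex1-3 minus WT at -0.59 for SWEET1 (limma adjusted p = 0.3) and -1.81 for SWEET17 (0.12), ptpkis2 minus sex1-3 at 0.64 for SWEET1 (0.41), and sex4-3 minus sex1-3 at 0.91 for SWEET1 (0.44) and 1.59 for SWEET17 (0.24), all uncalled. It put the median of all tested probe sets at 0.52, 0.43 and 0.36 in sex1-3, sex4-3 and ptpkis2 minus WT, against -0.02, 0.02 and 0.05, and the share of calls that were higher at 61.6% for sex1-3 minus WT, against 36.7%, and 40% for ptpkis2 minus sex1-3, against 55.8%. With 11 arrays centred those shares were 63.5% and 30.9%, against 36.4% and 57.6%, and 35.5% against 60% for sex4-3 minus sex1-3. Fitting only the 2 genotypes compared ended the calls of SWEET1 (-1.14) and SWEET17 (-2.35) in sex1-3 minus WT. SWEET17 in ptpkis2 minus sex4-3 became called at 1.27 in the fit of 2 genotypes (0.0031), and with 11 arrays at 1.27 as they were, 1.17 centred and 1.28 quantile normalized. The cause of these changes was not tested. SWEET2, SWEET4, SWEET11, SWEET13 and SWEET16 were called under none of the 23.

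Counts of probe sets called moved more. For sex1-3 minus WT, 403 became 207 under quantile normalization, 86 under centring, 0 in the fit of 2 genotypes, 1397 with 11 arrays centred and 1124 with 11 quantile normalized. For sex4-3 minus WT, 1 became 0 under the first 3 of these. For ptpkis2 minus WT, 36 became 1 under centring, 18 with no filter and with the lowest 20% left out, 14 without the eBayes trend, 0 in the fit of 2 genotypes, 456 with 11 arrays centred and 421 quantile normalized. For ptpkis2 minus sex1-3, 1291 became 470 under centring, 4257 with 2 genotypes, 4332 and 3830 with 11 arrays centred and quantile normalized. For sex4-3 minus sex1-3, 332 became 57, 1461, 2150 and 1804 in the same order. For ptpkis2 minus sex4-3, 9 became 14 under quantile normalization, 0 under centring, 16 with the pseudocount, 205 with 2 genotypes, and 329 and 257 with 11 arrays centred and quantile normalized. SWEET genes called became 0 for sex1-3 minus WT under centring and with 2 genotypes, 1 for ptpkis2 minus sex1-3 and 0 for sex4-3 minus sex1-3 under centring, and 1 for ptpkis2 minus sex4-3 with 2 genotypes and in each fit of 11 arrays. Sugar transport genes called became 0 for sex1-3 minus WT under quantile normalization, centring, no filter, no trend, the replicate block and 2 genotypes, 3 for ptpkis2 minus sex1-3 with 2 genotypes and each fit of 11 arrays, and 1 for sex4-3 minus sex1-3 with 11 arrays centred.

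Leaving out each array in turn gave 0.74 to 0.97 for SWEET1 in ptpkis2 minus sex1-3, 0.91 to 1.14 in sex4-3 minus sex1-3, and 1.17 to 1.41 for SWEET17 in ptpkis2 minus sex4-3. Probe sets called ran 158 to 1211 for sex1-3 minus WT, 6 to 369 for ptpkis2 minus WT, 679 to 3970 for ptpkis2 minus sex1-3, 113 to 1907 for sex4-3 minus sex1-3 and 2 to 226 for ptpkis2 minus sex4-3, the highest each time without WT replicate 2. SWEET genes called ran 1 to 2 in ptpkis2 and in sex4-3 minus sex1-3 and 0 to 1 in ptpkis2 minus sex4-3, and sugar transport genes 0 to 1 in sex1-3 minus WT and 0 to 3 in ptpkis2 minus sex1-3.

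Arrays with the same replicate number deviated together at r of -0.07 to 0.11, above 0.1 in 1 of 18 pairs. Arrays with different numbers did so at -0.14 to 0.13, and 4 of 12 arrays correlated best with their own number. With the replicate number as a block, SWEET17 in sex1-3 minus WT stayed at -2.35 (limma adjusted p = 0.0026) and SWEET1 at -1.14 (0.025), ptpkis2 minus WT had 12 probe sets called, sex1-3 minus WT had 305, and no call of a SWEET gene changed. Low signal limits the 7 dim SWEET genes, which the filter left out and a fit with no filter did not call.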
